A study of Caenorhabditis elegans with 30 samples.

Results

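The genes described here build and sort chromosomes in meiosis, and 44 of them were followed across 6 genotypes of Caenorhabditis elegans. They were chosen by name, as genes of the chromosome axis, the synaptonemal complex, cohesin, DNA breaks, break repair, crossing over and homologue pairing. All 44 names were found among the 20484 genes of the deposited tables. Whole worms of bleach-synchronised populations, kept at 20 °C, were taken at the late L4 stage, the end of the fourth larval stage, with 5 biological replicates of each genotype and 30 samples in all. The daf-2 triple mutant carried daf-2(e1370), his-72(tm2066) and his-71(ok2289). The daf-2 mutant carried daf-2(e1370) alone, an allele that weakens the worm's insulin-like receptor. The nuo-6 triple mutant carried nuo-6(qm200), his-72(tm2066) and his-71(ok2289). The nuo-6 mutant carried nuo-6(qm200) alone, an allele of a mitochondrial complex I gene. The double mutant carried his-72(tm2066) and his-71(ok2289), which remove the broadly expressed copies of histone H3.3, the H3 form placed into chromatin outside DNA replication. Wild type (WT) carried none of these alleles. Each genotype was profiled as whole worms, so tissues were not separated.

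Meiosis reduces the chromosome number by pairing homologues, cutting and repairing their DNA so that they exchange arms, and then separating them. In the worm the homologues find each other through pairing centres, zinc finger proteins bound there tie the chromosomes to the nuclear envelope, and HORMA domain proteins lay down an axis on which the SYP proteins assemble the synaptonemal complex. SPO-11 cuts the DNA, RAD-51 starts repair from the homologue, and a small set of proteins marks each site that becomes a crossover. Faulty segregation of the X chromosome gives many male offspring, the phenotype for which the him genes are named. Late in the fourth larval stage the gonad holds dividing germ cells, germ cells in meiotic prophase and cells forming sperm, while oocytes follow after the moult.

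Each value is an FPKM, a fragment count divided by transcript length and by the size of the library, and the tables hold 1 such value per gene and genotype. The sources used here do not say how the 5 replicates became 1 value. The differences below hence come with neither replicate error nor a test, and sequencing depth is unknown. A gene is called higher or lower where the ratio of the deposited values was at least 2 and the larger value at least 5 FPKM. The labels were checked first: his-71 and his-72 lay between 0.276 and 0.408 FPKM in the double and triple mutants, against 223 to 418 FPKM in the other 3 genotypes. Summed FPKM was lowest in the daf-2 triple mutant, 935102, and highest in nuo-6. Among all compared genes the median log2 ratio was -0.15 in the daf-2 triple mutant over daf-2, 0.12 in nuo-6 over WT and between -0.10 and 0.07 in the other 5 comparisons. With the tables scaled to equal sums these medians were 0.36 in the daf-2 triple mutant over daf-2, 0.35 over the double mutant and 0.27 in the nuo-6 triple mutant over nuo-6. Medians of the meiotic genes are given as deposited, and also less these values where so stated. Of the 44 genes, 19 share a listed locus or exon bases with another gene. Their reads cannot be assigned with certainty, since use of strand in counting is not stated.

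All 44 meiotic genes had their lowest value in daf-2. Of all 12836 genes with at least 5 FPKM in some genotype and no value of 0, 28.997% did. With tables scaled to equal median ratios, equal sums or equal upper quartiles, 43 of the 44 were still lowest there, and the exception was him-8, lowest in nuo-6. The highest value was in the daf-2 triple mutant for 24 of the 44, in nuo-6 for 15, in the double mutant for 4 and in WT for 1. Of the same 12836 genes the shares highest there were 20.99%, 27.2%, 10.3% and 7.63%, in that order. With equal sums the count in the daf-2 triple mutant was 40 and that in nuo-6 was 2, beside 40.05% and 15.96% of all genes. The median meiotic gene had 18.7 FPKM in the daf-2 triple mutant, 3.70 in daf-2, 8.52 in the nuo-6 triple mutant, 18.3 in nuo-6, 14.4 in the double mutant and 13.002 in WT. No meiotic gene was listed at 0 in any genotype. At least 5 FPKM was reached by 43 of the 44 in the daf-2 triple mutant, 15 in daf-2, 36 in the nuo-6 triple mutant, 43 in nuo-6, 44 in the double mutant and 41 in WT.

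**Figure D1:**
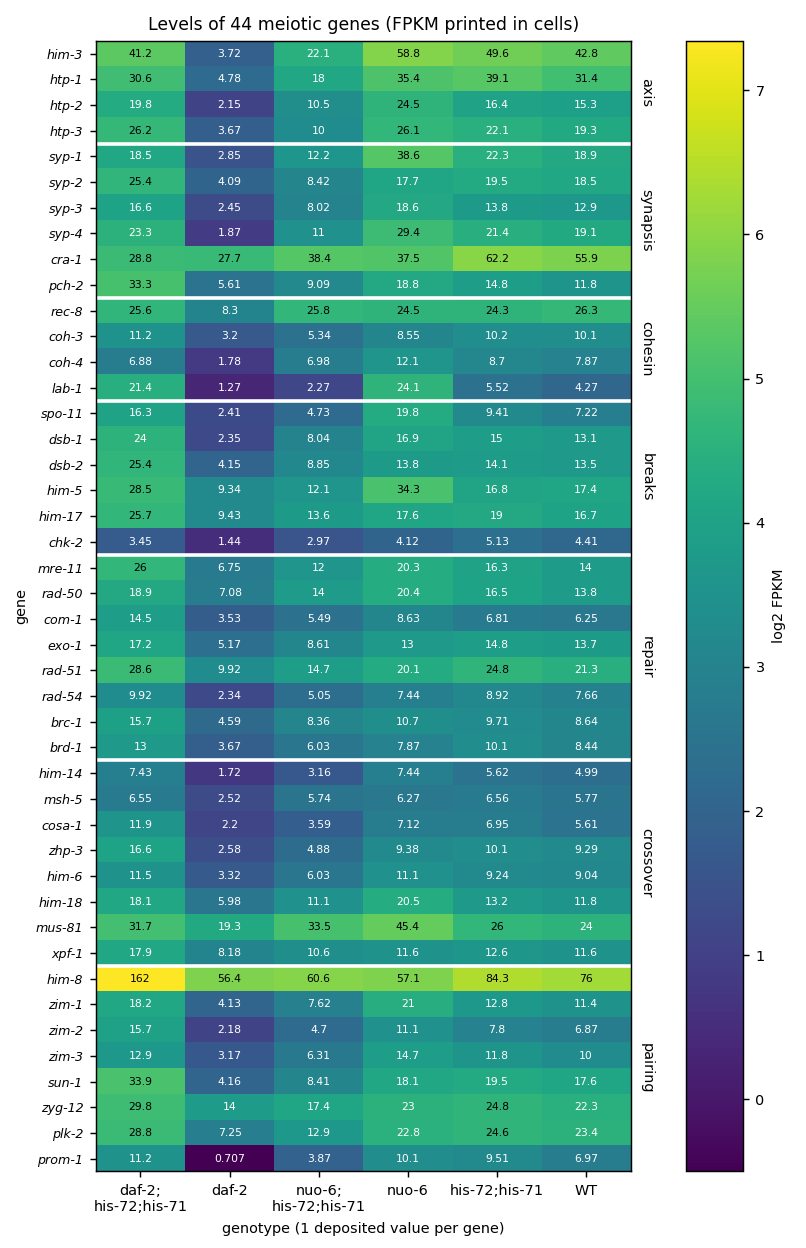
Level of each of the 44 meiotic genes (rows, grouped by role) in the 6 genotypes (columns), with the deposited FPKM printed in each cell and coloured by log2 FPKM. The daf-2 column holds the lowest value of every row, and prom-1 has the lowest value, 0.707 FPKM, while him-8 in the daf-2 triple mutant has the highest, 162 FPKM.

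In daf-2 over WT, 31 of the 41 meiotic genes that reached 5 FPKM were lower and 0 higher, beside 13.2% lower and 15.1% higher of all compared genes. With a pseudocount of 1 the calls of cra-1, pch-2, mre-11 and msh-5 were lost. With equal sums those of msh-5 and cosa-1 were lost, since both values of each gene fell under 5 FPKM. Their log2 ratios stayed past a ratio of 2, at -1.19 and -1.34. The median log2 ratio over all 44 was -1.60, and it was 0.01 over all compared genes. lab-1, chk-2 and him-14 stayed under 5 FPKM in both genotypes and were not compared. The other 10 not called, among them mus-81, him-8, xpf-1 and zyg-12, were each between 1.24-fold and 1.97-fold lower.

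The daf-2 triple mutant set against daf-2 showed the opposite. Of 43 compared meiotic genes 41 were higher and 0 lower, beside 17.1% higher and 12.3% lower of all compared genes. With tables scaled to equal sums the calls over all genes moved from 1991 higher and 1435 lower to 3148 higher and 383 lower. The median of the 44 genes was 2.03, and 2.19 less the median of all compared genes. cra-1 (1.04-fold higher) and mus-81 (1.64-fold higher) did not reach a ratio of 2, and chk-2 was not compared. Both of these comparisons use the same daf-2 pool.

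Against the double mutant, the daf-2 triple mutant gave few calls in either direction. Of 44 compared meiotic genes, pch-2, lab-1, com-1 and zim-2 were higher and cra-1 lower, beside 13.2% higher and 13.5% lower of all compared genes. The median was 0.30. The call of zim-2 was lost with equal upper quartiles (log2 ratio 0.96) or a pseudocount of 1 (0.93), and that of com-1 with the pseudocount (0.99). With equal sums 14 of the 44 were higher and 0 lower, and over all genes 1563 higher and 1604 lower became 2538 higher and 731 lower. No share of all compared genes was computed with equal sums, so the 14 cannot be set beside one.

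In nuo-6 over WT, lab-1, spo-11 and syp-1 were higher and 0 of 43 compared meiotic genes were lower, beside 20.6% higher and 5.47% lower of all compared genes. The median was 0.35, and 0.23 less that of all compared genes. The call of syp-1, 2.04-fold higher, was lost with equal sums, equal upper quartiles or a pseudocount of 1. Over all genes 2416 higher and 641 lower became 1688 higher and 935 lower with equal sums.

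The nuo-6 triple mutant against nuo-6 ran the other way from the daf-2 pair. This comparison shares its nuo-6 pool with that of nuo-6 over WT. Of 43 compared meiotic genes 18 were lower and 0 higher, beside 16.9% lower and 6.92% higher of all compared genes, with a median of -0.88. With equal sums 9 were lower and 0 higher, as htp-2, syp-2, syp-3, pch-2, dsb-1, him-14, zim-2, zim-3 and sun-1 lost the call. Over all genes 824 higher and 2014 lower became 1534 higher and 1209 lower. No share of all compared genes was computed with that scaling, so the 9 cannot be set beside one. Against the double mutant, 8 of 44 compared genes were lower in the nuo-6 triple mutant and 0 higher, beside 6.73% lower and 5.76% higher of all compared genes. Their median was -0.75. Of the 8, zhp-3 lost the call under each scaling and the pseudocount. lab-1 lost it with the pseudocount, and with equal sums, where both its values fell under 5 FPKM.

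With H3.3 loss in an otherwise wild-type worm these genes lay near their WT level. In the double mutant over WT, 0 of 44 compared meiotic genes were higher and 0 lower, beside 1.14% higher and 0.902% lower of all compared genes. The log2 ratios ran from -0.11 for rec-8 to 0.45 for prom-1, with a median of 0.17. That is 0.10 above the median of all compared genes. Only rec-8 and him-5 lay below a ratio of 1 as deposited.

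The median log2 ratio with H3.3 loss was thus 2.03 in the daf-2 background, -0.88 in the nuo-6 background and 0.17 in WT. The pools of these 3 comparisons do not overlap. In the same order the medians were 1.75, -0.64 and 0.14 for germ cell markers and 5.56, -2.01 and 0.21 for oocyte markers. The part of germline content in the ratios of the meiotic genes was not tested. Gene by gene, the log2 ratio in the daf-2 background was at least 1 above that in WT for 41 of the 44 genes, beside 17.7% of all genes. In the nuo-6 background it was at least 1 below that in WT for 22 of the 44, beside 19.3% of all genes. These differences were not tested, for want of replicate values.

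**Figure D2:**
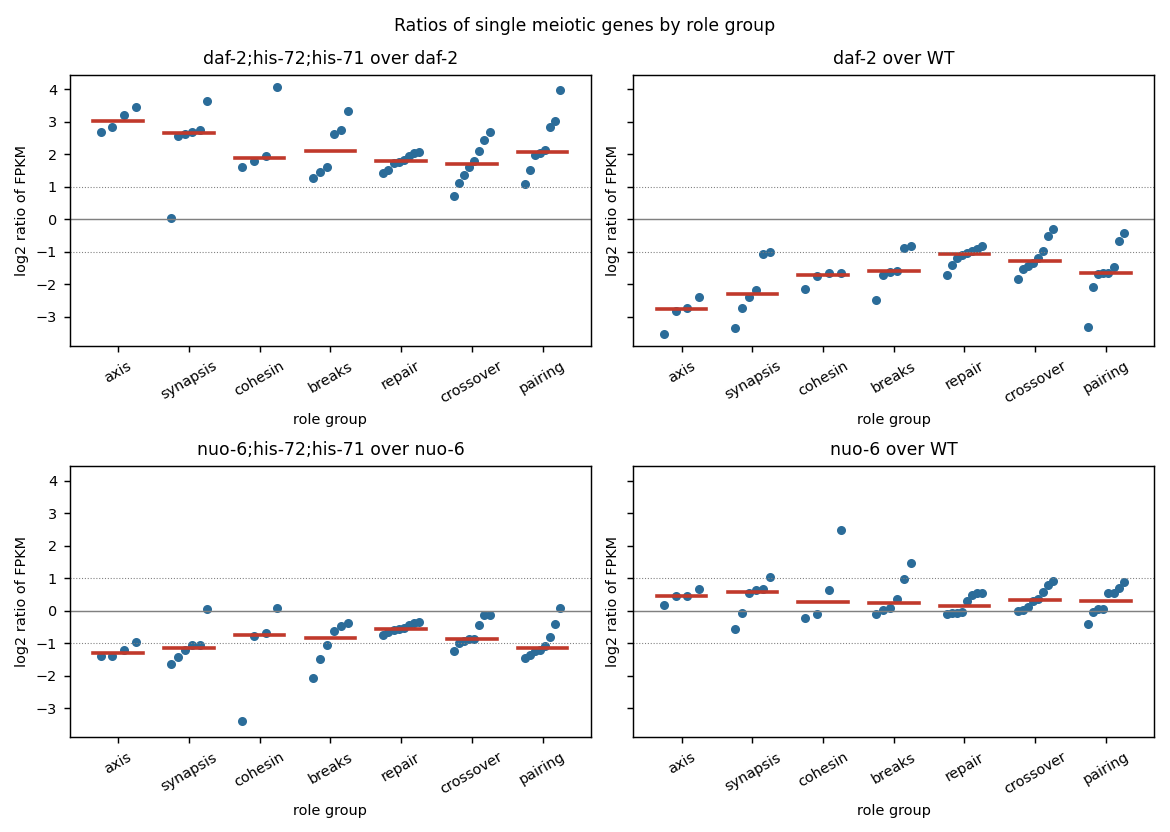
Log2 ratio of FPKM of each meiotic gene (points) by role group, with the median of the group (red bar), in the daf-2 triple mutant over daf-2, daf-2 over WT, the nuo-6 triple mutant over nuo-6, and nuo-6 over WT. Dotted lines mark a ratio of 2. The axis group has the median farthest from 0 in the first 3 panels, 3.02, -2.77 and -1.30, and the repair group lies at 1.80, -1.08 and -0.55.

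The axis genes encode HORMA domain proteins that line each pair of sister chromatids. him-3 (WBGene00001862, chromosome IV, 6977518 to 6986935) had 41.2 FPKM in the daf-2 triple mutant, 3.72 in daf-2, 22.1 in the nuo-6 triple mutant, 58.8 in nuo-6, 49.6 in the double mutant and 42.8 in WT. It was thus 11.1-fold higher in the daf-2 triple mutant than in daf-2, and 11.5-fold lower in daf-2 than in WT. The listed locus is shared with prkl-1, which lay between 4.29 and 9.42 FPKM in all 6 genotypes and had 7.24 FPKM in daf-2. htp-3, which the other HORMA proteins need in order to load, had 26.2, 3.67, 10.002, 26.1, 22.1 and 19.3 FPKM across the 6 genotypes as listed. The paralogues htp-1 and htp-2 encode closely similar proteins, so reads could be split between them, and single values are uncertain. Their levels were 30.6, 4.78, 18.04, 35.4, 39.1 and 31.4 FPKM for htp-1 and 19.8, 2.15, 10.5, 24.5, 16.4 and 15.3 FPKM for htp-2. All 4 axis genes were lower in daf-2 than in WT, by 5.25-fold or more. In the nuo-6 triple mutant him-3, htp-2 and htp-3 were 2.66-fold, 2.33-fold and 2.61-fold lower than in nuo-6, and htp-1, 1.96-fold lower, just missed a ratio of 2. The call of htp-2 was lost with equal sums.

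The SYP proteins form the central region of the synaptonemal complex, which joins the axes of paired homologues. syp-4 had 23.3 FPKM in the daf-2 triple mutant, 1.87 in daf-2, 10.99 in the nuo-6 triple mutant, 29.4 in nuo-6, 21.4 in the double mutant and 19.1 in WT. syp-1 had 18.5, 2.85, 12.2, 38.6, 22.3 and 18.9 FPKM in that order. Both were far below the other genotypes in daf-2. In nuo-6 syp-1 was 2.04-fold higher than in WT, a call lost with equal sums, equal upper quartiles or a pseudocount of 1. There syp-4 and syp-3 were 1.54-fold and 1.44-fold higher than in WT, and syp-2 was 1.05-fold lower. On the same strand 517 exon bases of syp-1 are shared with F13A7.14, which had 20.5, 2.86, 7.08, 12.2, 11.4 and 10.2 FPKM in that order, so the split of reads between them is uncertain. syp-2 and syp-3 were 4.51-fold and 5.26-fold lower in daf-2 than in WT, and 6.22-fold and 6.76-fold higher in the daf-2 triple mutant than in daf-2. In the nuo-6 triple mutant all 4 syp genes were lower than in nuo-6, by 2.096-fold to 3.16-fold. With equal sums the calls of syp-2 and syp-3 were lost, at log2 ratios of -0.71 and -0.86, and that of syp-2 also with equal upper quartiles or a pseudocount. Summed over the 4 axis and 4 syp genes, the level was 202 FPKM in the daf-2 triple mutant, 25.6 in daf-2, 100.3 in the nuo-6 triple mutant, 249 in nuo-6, 204 in the double mutant and 178 in WT.

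The other 2 genes placed with synapsis differed from the syp genes. pch-2 encodes an AAA ATPase that remodels HORMA proteins. Its levels over the 6 genotypes, again from the daf-2 triple mutant to WT, were 33.3, 5.61, 9.09, 18.8, 14.8 and 11.8 FPKM. It was only 2.11-fold lower in daf-2 than in WT, and its value in the daf-2 triple mutant was 2.24-fold that in the double mutant. The locus is shared with emb-27, which had 26.9, 10.3, 17.5, 22.2, 22.1 and 18.3 FPKM. cra-1, which promotes assembly of the complex, had 28.8 FPKM in the daf-2 triple mutant, 27.7 in daf-2, 38.4 in the nuo-6 triple mutant, 37.5 in nuo-6, 62.2 in the double mutant and 55.9 in WT. Its values followed the daf-2 or nuo-6 mutation with or without H3.3, at 2.02-fold lower in daf-2 than in WT and 2.16-fold lower in the daf-2 triple mutant than in the double mutant. The first of these calls was lost with a pseudocount of 1 (log2 ratio -0.99), and the second with equal median ratios or equal sums.

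Cohesin holds sister chromatids together, and meiosis uses the kleisin subunits REC-8, COH-3 and COH-4 in place of the mitotic one. rec-8 had 25.6 FPKM in the daf-2 triple mutant, 8.30 in daf-2, 25.8 in the nuo-6 triple mutant, 24.5 in nuo-6, 24.3 in the double mutant and 26.3 in WT. Apart from daf-2 its 5 values as deposited lay between 24.3 and 26.3 FPKM. Equal sums divide the daf-2 triple mutant by 0.935 and nuo-6 by 1.51, so with that scaling these values lie further apart. coh-3 and coh-4, near-identical paralogues with uncertain single values, had 5.34 and 6.98 FPKM in the nuo-6 triple mutant, against 8.55 and 12.1 FPKM in nuo-6. The level of rec-8 over that of coh-3 was accordingly 4.83 in the nuo-6 triple mutant and between 2.29 and 2.86 in the other 5 genotypes. On the same strand coh-4 shares 327 exon bases with Y45G5AM.7, which had 9.24 FPKM in the nuo-6 triple mutant and 11.95 in nuo-6. The split of reads between those genes is uncertain.

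lab-1 protects cohesion on the long arms of paired chromosomes by bringing in a protein phosphatase. At WBGene00007278 on chromosome I, 9657057 to 9657850, it had 21.4 FPKM in the daf-2 triple mutant, 1.27 in daf-2, 2.27 in the nuo-6 triple mutant, 24.1 in nuo-6, 5.52 in the double mutant and 4.27 in WT. With H3.3 loss it was 16.9-fold higher in the daf-2 background and 10.6-fold lower in the nuo-6 background. The first of these rests on the low daf-2 value, and with a pseudocount of 1 its log2 ratio was 3.31 in place of 4.08. The second rests likewise on a low value, the 2.27 FPKM of the nuo-6 triple mutant. In nuo-6 it was 5.63-fold higher than in WT, a ratio that uses the same nuo-6 value as the 10.6-fold one. The transcript shares 52 exon bases on the opposite strand with T05F1.11, whose values of 2.94, 8.60, 9.36, 8.97, 3.999 and 3.11 FPKM did not run parallel to those of lab-1.

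Breaks are made by SPO-11, a relative of topoisomerases, helped by DSB-1 and DSB-2. spo-11 (WBGene00004985, chromosome IV, 11119343 to 11124847) had 16.3 FPKM in the daf-2 triple mutant, 2.41 in daf-2, 4.73 in the nuo-6 triple mutant, 19.8 in nuo-6, 9.41 in the double mutant and 7.22 in WT. Like lab-1 it was above WT in nuo-6, 2.75-fold, and lower in the nuo-6 triple mutant than in nuo-6, 4.20-fold. Both ratios use the same nuo-6 value. It shares a listed locus and 23 exon bases with the abundant chaperone gene enpl-1, which had 372, 576, 356, 285, 441 and 476.1 FPKM, highest in daf-2, where spo-11 was lowest. dsb-1 had 24.0, 2.35, 8.04, 16.9, 15.01 and 13.1 FPKM in the same order and dsb-2 had 25.4, 4.15, 8.85, 13.8, 14.1 and 13.5 FPKM. Both were lower in daf-2 than in WT, dsb-1 by 5.57-fold and dsb-2 by 3.26-fold.

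him-5, which promotes breaks on the X chromosome above all, had 28.5 FPKM in the daf-2 triple mutant, 9.34 in daf-2, 12.1 in the nuo-6 triple mutant, 34.3 in nuo-6, 16.8 in the double mutant and 17.4 in WT. Its ratio of 1.97 in nuo-6 over WT came just short of 2, and in the nuo-6 triple mutant it was 2.83-fold lower than in nuo-6. him-17, a chromatin-associated factor also needed for breaks, varied less, from 9.43 FPKM in daf-2 to 25.7 in the daf-2 triple mutant. chk-2, the kinase that starts pairing and break formation, had 3.45, 1.44, 2.97, 4.12, 5.13 and 4.41 FPKM and passed 5 FPKM in the double mutant alone.

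Break ends are trimmed by MRE-11 and RAD-50 with COM-1 and EXO-1, RAD-51 and RAD-54 invade the partner DNA, and the BRC-1 and BRD-1 pair, orthologues of human BRCA1 and BARD1, acts in repair between sisters. These proteins also serve dividing cells. rad-51 had 28.6 FPKM in the daf-2 triple mutant, 9.92 in daf-2, 14.7 in the nuo-6 triple mutant, 20.1 in nuo-6, 24.8 in the double mutant and 21.3 in WT. It was 2.15-fold lower in daf-2 than in WT, a smaller ratio than that of any axis or syp gene. Of the 8 repair genes as deposited, mre-11, exo-1, rad-51, rad-54 and brd-1 were lower in daf-2, while rad-50, com-1 and brc-1 were 1.95-fold, 1.77-fold and 1.88-fold lower. All 8 were higher in the daf-2 triple mutant than in daf-2, from 2.66-fold for rad-50 to 4.24-fold for rad-54. None of the 8 was called in the nuo-6 triple mutant over nuo-6, where they lay between 1.28-fold and 1.69-fold lower. Genes of one complex kept similar levels: mre-11 over rad-50 lay between 0.859 and 1.38, and brc-1 over brd-1 between 0.962 and 1.39, in the 6 genotypes.

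Crossover sites are marked by HIM-14 (the worm MSH4), MSH-5, COSA-1 and ZHP-3. zhp-3 had 16.6 FPKM in the daf-2 triple mutant, 2.58 in daf-2, 4.88 in the nuo-6 triple mutant, 9.38 in nuo-6, 10.1 in the double mutant and 9.29 in WT. cosa-1 had 11.9, 2.203, 3.59, 7.12, 6.95 and 5.61 FPKM in that order. Both were lowest in daf-2 and next lowest in the nuo-6 triple mutant, where zhp-3 was 2.08-fold below the double mutant by a narrow margin that other scalings removed. cosa-1 shares 178 exon bases on the opposite strand with Y71H2AM.12, which had 4.28, 7.995, 3.52, 6.27, 3.33 and 3.37 FPKM. him-14 had 7.43, 1.72, 3.16, 7.44, 5.62 and 4.99 FPKM, and msh-5 had 6.55, 2.52, 5.74, 6.27, 6.56 and 5.77 FPKM. The proteins are partners in one complex, yet him-14 over msh-5 was 1.13 and 1.19 in the daf-2 triple mutant and nuo-6, 0.551 and 0.684 in the nuo-6 triple mutant and daf-2, and 0.857 and 0.865 in the double mutant and WT. him-14 shares 154 exon bases on the opposite strand with nos-2, which had 38.8 FPKM in the daf-2 triple mutant, 3.61 in nuo-6 and under 0.36 FPKM in the other 4 genotypes. What part those bases had in the him-14 values was not tested.

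Joined DNA molecules are taken apart by HIM-6, a helicase of the Bloom syndrome family, and by the nucleases MUS-81 and XPF-1 with the scaffold HIM-18. him-6 followed the larger group, with 11.5 FPKM in the daf-2 triple mutant, 3.32 in daf-2, 6.03 in the nuo-6 triple mutant, 11.1 in nuo-6, 9.24 in the double mutant and 9.04 in WT. him-18 had 18.1, 5.98, 11.1, 20.5, 13.2 and 11.8 FPKM, with the low value again in daf-2. The nuclease genes had smaller ratios in the daf-2 comparisons with WT and with the daf-2 triple mutant. mus-81 had 31.7, 19.3, 33.5, 45.4, 25.95 and 24.0 FPKM in that order, and xpf-1 had 17.9, 8.18, 10.6, 11.6, 12.6 and 11.6 FPKM. Neither was called in daf-2 over WT, at 1.24-fold and 1.42-fold lower, and both share a listed locus with another gene. In nuo-6 over WT the log2 ratio of mus-81, 0.92, was above that of him-18, 0.80, and of him-6, 0.30.

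Pairing centres are bound by HIM-8 on the X chromosome and by ZIM-1, ZIM-2 and ZIM-3 on the autosomes, and the 4 genes stand in a row on chromosome IV between 10547087 and 10563974. him-8 (WBGene00001867) had 162 FPKM in the daf-2 triple mutant, 56.4 in daf-2, 60.6 in the nuo-6 triple mutant, 57.1 in nuo-6, 84.3 in the double mutant and 76.0 in WT. zim-2 (WBGene00011600) had 15.7, 2.18, 4.70, 11.1, 7.80 and 6.87 FPKM in the same order. Although neighbours, the genes differed: him-8 was 1.35-fold lower in daf-2 than in WT and zim-1, zim-2 and zim-3 were 2.75-fold, 3.15-fold and 3.17-fold lower. In nuo-6 over WT him-8 was 1.33-fold lower, while the zim genes were 1.46-fold to 1.85-fold higher. The level of him-8 over that of zim-2 therefore ran from 5.12 in nuo-6 to 25.9 in daf-2, with 11.1 in WT. In the nuo-6 triple mutant the 3 zim genes were 2.32-fold to 2.75-fold lower than in nuo-6, and him-8 was 1.06-fold higher. With equal sums the calls of zim-2 and zim-3 were lost, at log2 ratios of -0.89 and -0.86. zim-1 and zim-2 overlap by 223 exon bases on the same strand.

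SUN-1 and ZYG-12 span the nuclear envelope and pass the pull of microtubules to the pairing centres, where the polo kinase PLK-2 gathers. sun-1 had 33.9 FPKM in the daf-2 triple mutant, 4.16 in daf-2, 8.41 in the nuo-6 triple mutant, 18.1 in nuo-6, 19.5 in the double mutant and 17.6 in WT. zyg-12, which also anchors nuclei in other cells, had 29.8, 14.04, 17.4, 23.0, 24.8 and 22.3 FPKM. As a result the level of sun-1 over that of zyg-12 was 1.14 in the daf-2 triple mutant and 0.296 in daf-2, and close to 0.788 in both the double mutant and WT. plk-2 was 3.24-fold lower in daf-2 than in WT and 3.97-fold higher in the daf-2 triple mutant than in daf-2. prom-1, an F-box gene needed for homologue pairing, had 11.2, 0.707, 3.87, 10.1, 9.51 and 6.97 FPKM. It was 9.86-fold lower in daf-2 than in WT, a ratio that rests on the low daf-2 value. With a pseudocount of 1 its log2 ratio was -2.22 in place of -3.30. It shares a listed locus with F26H9.2, which had 23.9, 17.5, 13.1, 12.2, 17.3 and 14.1 FPKM.

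**Figure D3:**
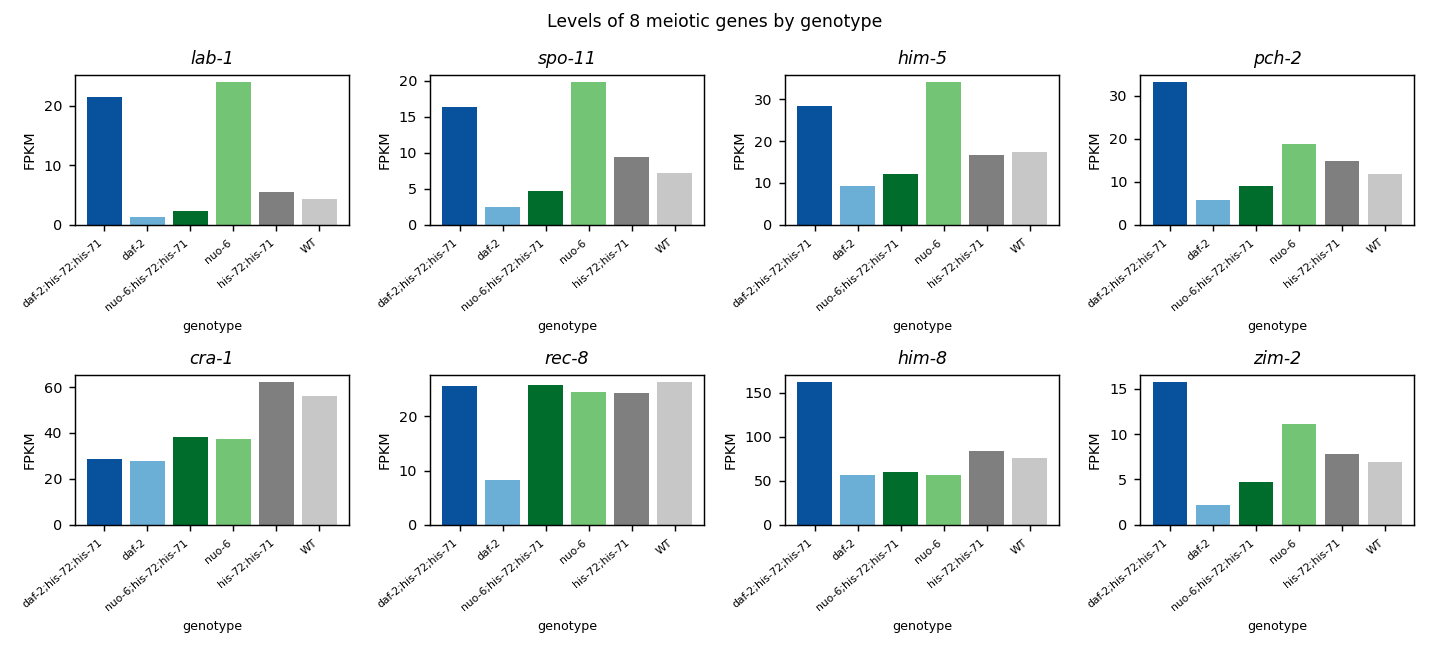
FPKM (bars, from 0, 1 deposited value each) of 8 meiotic genes in the 6 genotypes, chosen after their values were seen. lab-1, spo-11 and him-5 stand highest in the daf-2 triple mutant and nuo-6, rec-8 is low in daf-2 alone, cra-1 is lowest in the pair of daf-2 genotypes, and him-8 at 162 FPKM in the daf-2 triple mutant lacks the low daf-2 bar of its neighbour zim-2.

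Other genes of meiosis and DNA repair were followed as a list of 80 names outside the 44, of which 68 were found, many of them also active in dividing body cells. In daf-2 over WT 23 of 67 compared were lower and 0 higher (median -0.68), beside 13.2% lower of all compared genes. In the daf-2 triple mutant over daf-2 39 of 68 were higher and 0 lower (median 1.07), beside 17.1% higher of all. In the nuo-6 triple mutant over nuo-6 5 of 68 were lower and 0 higher (median -0.30), a smaller share than the 16.9% lower of all compared genes. In the double mutant over WT 0 of 68 were called. plk-3, of the polo kinase family, was the most lowered in daf-2, with 4.46 FPKM against 25.5 in WT, and xnd-1, which shapes where crossovers fall, had 4.49 FPKM in daf-2 against 15.96 in WT. The securin gene ify-1 had 105 FPKM in the daf-2 triple mutant against 12.5 in daf-2, and 22.9 FPKM in the nuo-6 triple mutant against 77.7 in nuo-6. mei-2, of the katanin that builds the meiotic spindle of the egg, had 68.7 FPKM in the daf-2 triple mutant against 3.72 in daf-2 and 10.7 in the double mutant. In nuo-6 over WT only skr-1 (2.66-fold lower) and cku-70 (2.07-fold higher) were called among 68, beside 20.6% higher and 5.47% lower of all compared genes.

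Germ cell and cell division markers ran parallel to the meiotic genes in some comparisons and not in others. In bulk worms, fewer cells of a type and less RNA per cell cannot be told apart. Summed over 30 germ cell markers the level was 2228 FPKM in the daf-2 triple mutant, 619 in daf-2, 1076 in the nuo-6 triple mutant, 1940 in nuo-6, 1591 in the double mutant and 1445 in WT. The order of genotypes matched that of the summed meiotic genes, which stood at 1030.4, 284, 513, 886, 803 and 717 FPKM. The 34 markers of S phase and mitosis summed to 2159, 478, 812, 1136, 1049 and 989 FPKM. Their order of genotypes was the same, as was that of the summed oocyte markers given below, so it is not particular to germ cell markers. Medians of the log2 ratios in daf-2 over WT were -1.60 for the meiotic genes, -1.47 for germ cell markers and -1.10 for S phase and mitosis. In the daf-2 triple mutant over daf-2 they were 2.03, 1.75 and 2.0004, and in the nuo-6 triple mutant over nuo-6 -0.88, -0.64 and -0.42. In nuo-6 over WT the median of the meiotic genes was 0.35, against 0.04 for germ cell markers, -0.03 for S phase and mitosis and 0.12 for all compared genes. In the daf-2 triple mutant over the double mutant the medians were 0.30, 0.25 and 0.81. The part of these markers in the ratios of the meiotic genes was not tested.

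Sperm and oocyte markers spread further. The 39 sperm formation markers summed to 349 FPKM in the daf-2 triple mutant, 45.0 in daf-2, 160.1 in the nuo-6 triple mutant, 1063 in nuo-6, 499.98 in the double mutant and 349 in WT. The equal sums of the daf-2 triple mutant and WT hide a difference, since 1 gene, spp-20, made up 150.5 FPKM of the sum in the daf-2 triple mutant, and the median marker had 2.205 FPKM in the daf-2 triple mutant against 5.46 in WT. msd-1 and msd-3 among them were listed at 0 in every genotype, and ssp-19 in daf-2 as well. The 32 oocyte and eggshell markers summed to 6883, 434, 524, 1675, 776 and 744 FPKM in that order, with none at 0. Of the sperm markers 17 of 20 compared were lower in daf-2 than in WT (13.2% of all compared genes), 21 of 28 higher in nuo-6 than in WT (20.6% of all) and 24 of 28 lower in the nuo-6 triple mutant than in nuo-6 (16.9% of all). Of the oocyte markers 29 of 32 were higher in the daf-2 triple mutant than in daf-2 (17.1% of all), 30 of 32 higher than in the double mutant (13.2% of all), and 26 of 30 lower in the nuo-6 triple mutant than in nuo-6 (16.9% of all). A marker was compared where either value reached 5 FPKM, so a list is compared largely through the genotype where it is high. Of the sperm markers 28 reached that level in nuo-6, 20 in WT, 13 in the nuo-6 triple mutant and 2 in daf-2. Of the oocyte markers 32 did in the daf-2 triple mutant, 30 in nuo-6 and 25 in the double mutant. The nuo-6 triple mutant had 15 and daf-2 had 10. By this rule the counts lean towards the direction given. In the daf-2 triple mutant over the double mutant the 3 germline lists parted: the oocyte median was 3.62, the sperm median -1.64 and that of the meiotic genes 0.30.

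Body tissue markers took other courses. The 32 muscle markers summed to 9156 FPKM in the daf-2 triple mutant and to between 12643 and 16967 FPKM in the other 5 genotypes. With equal sums the daf-2 triple mutant was no longer lowest, at 9791 against 9260 in nuo-6. As deposited 10 of 32 were lower in the daf-2 triple mutant than in daf-2, beside 12.3% of all compared genes. The 31 intestine markers had a median of 0.75 in daf-2 over WT and the 32 neuron markers one of 0.94. The intestine list was mixed, with 20 ratios above 1 and 11 at or below, from -3.27 for fat-7 to 4.94 for lys-7. All 32 neuron markers lay above a ratio of 1. In the daf-2 triple mutant over daf-2 the medians were -0.79 for muscle, -0.85 for intestine and -0.85 for neuron, against 2.03 for the meiotic genes. In the nuo-6 triple mutant over nuo-6 they were 0.01, 0.09 and 0.81.

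**Figure D4:**
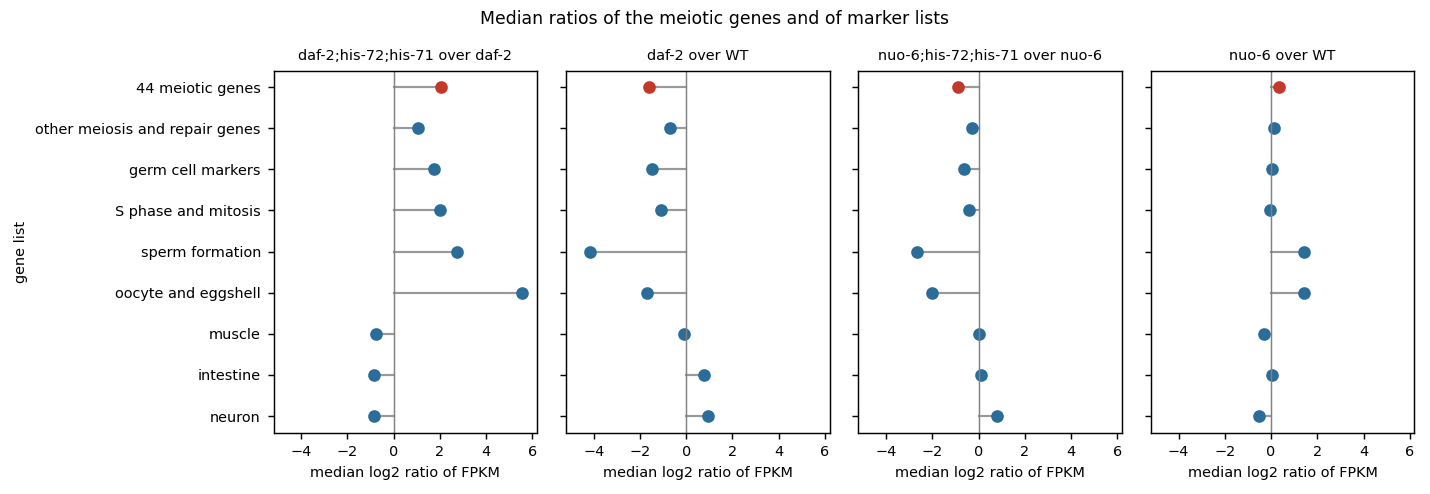
Median log2 ratio of FPKM (points, joined to 0) of the 44 meiotic genes (red) and of other gene lists (blue) in 4 comparisons. Sperm formation genes lie lowest in daf-2 over WT, at -4.14, and oocyte genes highest in the daf-2 triple mutant over daf-2, at 5.56, with the meiotic genes between, at -1.60 and 2.03.

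The choice of the genes did not use their position. Male progeny follow faulty segregation of the X chromosome, so a choice by meiotic role favours genes with that phenotype, beyond the him names. None of the 44 lies on the X chromosome, which holds 13.8% of all listed genes, while chromosome IV holds 13 of them, 29.5%, against 16.3% of all genes. Among those 13 are the neighbours him-8, zim-1, zim-2 and zim-3. By the phenotype terms in the authors' tables, 26 of the 44 give a high incidence of male progeny, beside 158 of 20484 genes. Only 7 of the 44 are named him, and 20 of the other 37 carry the term. Genes with the term and genes without it had close medians: -1.66 and -1.38 in daf-2 over WT, 2.01 and 2.06 in the daf-2 triple mutant over daf-2, and -0.96 and -0.72 in the nuo-6 triple mutant over nuo-6.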

How the data were processed

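Per the labels, RNA came from a column kit and libraries followed Illumina protocols. RNA selection, strandedness and read length are not given in the sources used here. The deposited values are FPKM, computed by the authors. FastQC, STAR, Cufflinks and Cuffdiff are named in the submitters' processing notes, without versions, and no genome build is given in the sources used here. There are 6 tables, 1 per genotype, with 1 value per gene. Low values were examined for steps of whole reads: at best 26.7% to 34.5% per table lay within 0.1 of a whole multiple of a unit, so depth could not be read off.

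Ratios of the deposited values were taken in 7 comparisons with Python 3.11.15 and pandas 2.3.3, without pseudocount or rescaling. Genes listed at 0 were left out of ratios that use them. The calling step was tested on simulated data. Positions are those of the tables. All 44 genes were on the same chromosome in the WBcel235 annotation (10 with an identical start or end), which supplied exon overlaps. The genes and lists were chosen with earlier results of these data known. All 44 genes are named, and of the other meiosis genes up to 4 called per comparison by size of ratio. Alternatives were other ratios (1.5 and 3), minimum values (1 and 20 FPKM), 3 scalings, a pseudocount of 1, genes at 0 kept at 0.01 FPKM, and genes that share a locus left out.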

Additional observations from a re-analysis of the deposited data

Results flagged for a closer look

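Of 43 meiotic genes compared in both, 18 were called higher in the daf-2 triple mutant over daf-2 and lower in the nuo-6 triple mutant over nuo-6, beside 7.42% of all genes called in opposite directions. The differences between these log2 ratios, daf-2 pair minus nuo-6 pair, were not tested. With equal sums 9 of the 18 lost the call in the nuo-6 pair. The differences were 7.48 for lab-1, 4.83 for spo-11, 4.42 for dsb-1 and 3.11 for him-5. Among axis and synapsis genes they were 4.88 for him-3, 4.43 for htp-2, 4.22 for htp-3, 4.35 for syp-1, 3.70 for syp-2, 3.97 for syp-3, 5.06 for syp-4 and 3.62 for pch-2. For him-14 the difference was 3.34. Among pairing genes it was 3.60 for zim-1, 4.1 for zim-2, 3.25 for zim-3, 4.13 for sun-1 and 5.37 for prom-1.

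A further 2 of 41 meiotic genes compared in both, pch-2 and zim-2, were called higher by daf-2 without H3.3 and lower by daf-2 with it, beside 1.76% of all genes. Their differences were 2.24 and 2.67. For zim-2 the first call was lost with equal upper quartiles or a pseudocount of 1, and for pch-2 the second was lost with the pseudocount. With the nuo-6 mutation 1 of 43, lab-1, was called lower without H3.3 and higher with it, a smaller share than the 3.57% of all genes. Its difference was -3.77, and the first call was lost with equal sums or the pseudocount. These differences were not tested, and counts this small stand near the share over all genes.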

How the results depend on the processing

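No paired analysis was possible because the tables hold 1 value per genotype, and for the same reason no replicate could be left out. No added name was needed, since all 44 genes were found. No median of the 44 genes changed sign under the scalings, the pseudocount, the handling of zeros or the removal of genes that share a locus. With a ratio of 3 the lower genes in daf-2 over WT were 20 in place of 31, the higher ones in nuo-6 over WT 1 in place of 3, and the lower ones in the nuo-6 triple mutant 3 against nuo-6 and 0 against the double mutant. In the daf-2 triple mutant over the double mutant that ratio left 1 higher and 0 lower. With a ratio of 1.5, 12 were higher in nuo-6 over WT, 14 in the daf-2 triple mutant over the double mutant, and 30 lower in the nuo-6 triple mutant against either. Shares over all genes were not computed at ratios of 3 and 1.5, so these counts cannot be set beside them. A minimum of 20 FPKM left 6 lower in daf-2 over WT, 18 higher in the daf-2 triple mutant over daf-2 and 2 over the double mutant, and 8 and 3 lower in the nuo-6 triple mutant over nuo-6 and the double mutant. Over all genes that minimum left 624 lower in place of 1506 in daf-2 over WT. It left 1084 higher in place of 1991 in the daf-2 triple mutant over daf-2, and 910 in place of 1563 over the double mutant. In the nuo-6 triple mutant 1061 in place of 2014 were lower against nuo-6, and 215 in place of 765 against the double mutant. Numbers compared at that minimum, of the 44 and of all genes, were not counted, so shares cannot be given. With equal sums 9 were lower in the nuo-6 triple mutant over nuo-6, and in the daf-2 triple mutant over the double mutant 14 were higher and 0 lower. Equal median ratios also left 0 lower there, and the pseudocount left 2 higher. Leaving out genes that share a locus gave 11 lower in the nuo-6 triple mutant over nuo-6, by construction from fewer genes. Counts at a minimum of 20 FPKM likewise come from fewer compared genes, and a ratio of 3 can only lower a count. The cause of the other shifts was not tested. Values near 5 FPKM are imprecise, since depth is unknown.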
